A study of Homo sapiens with 6 samples.

Results

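This report describes 9 genes of MHC class I antigen presentation in MCF10A cells depleted of PAX9. They were chosen by name, and all 9 were found among the 26822 distinct symbols of the deposited RNA-seq table. The genes were HLA-B, HLA-C, HLA-E, HLA-F, B2M, TAP1, TAP2, PSMB8 and PSMB9. Where several loci carried the same symbol, the locus with the highest mean of both group values was kept. MCF10A is an established, non-tumorigenic line of human breast epithelial cells. The siPAX9 group received siRNAs targeting PAX9 and the siNT group non-targeting siRNAs, each at 30 nM for 72 hours by lipid transfection, so the control cells were transfected too. Each group had 3 samples of poly(A)+ RNA, and the labels do not say whether these came from separate cultures.

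MHC class I molecules display peptides from inside the cell on its surface, where CD8+ T cells and natural killer cells read them. A heavy chain encoded by an HLA gene pairs with beta-2-microglobulin, the B2M product. The peptides are cut by the proteasome, pumped into the endoplasmic reticulum by the TAP1-TAP2 transporter and loaded there onto the heavy chain. Interferons are known inducers of most of these genes, including PSMB8 and PSMB9, whose products replace constitutive catalytic subunits to form the immunoproteasome. Nearly all nucleated cells, epithelial cells included, carry class I molecules.

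The table gives 1 FPKM per locus and group, a level scaled to transcript length and library size (fragments per kilobase of transcript and unit of mapped reads), with the 3 samples of a group already combined by the authors. It holds no value per sample, so no replicate error, test or p-value is given, and no difference below can be set against the spread between samples. The table does not give how many reads each FPKM rests on. All changes are described as the log2 of siPAX9 over siNT and read against the 12595 named loci with a mean FPKM of at least 1, whose median log2 change was -0.07. PAX9 itself had 2.80 FPKM in siNT and 0.325 in siPAX9, a log2 change of -3.10. All 8 basal epithelial markers were measured in both groups, with KRT5, a basal keratin, at 1558 FPKM in siNT and 1807 in siPAX9, and 6 of the 8 were higher in siPAX9. CDH1, the epithelial cadherin, was at 45.3 and 124.4, EPCAM, an epithelial adhesion molecule, at 34.3 and 16.7 and TP63, the basal transcription factor, at 35.4 and 25.3. Markers of immune cells summed to 18.1 FPKM in siNT and 61.1 in siPAX9, most of it CD14, a lipopolysaccharide co-receptor (14.4 and 56.5). PTPRC, the pan-leukocyte gene, was at 0.0166 and 0.0922, and CD3E was listed at 0 in both groups. The 5 fibroblast markers summed to 6.40 and 42.2, with DCN contributing 5.85 and 37.9, and the 4 endothelial markers to 3.38 and 2.46. Among the latter, PECAM1 was at 2.58 and 0.495 and KDR at 0.798 and 1.94, while VWF and CDH5 were near 0. The part of these markers in the results below was not tested. In bulk RNA, fewer cells of a type and less RNA per cell cannot be told apart.

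Differences in the class I genes were mostly small and went both ways. Of the 9 genes, 7 had a higher FPKM in siPAX9 and 2 a lower one. The heavy chains, B2M and the TAP transporter made up the 7, and the inducible proteasome subunits PSMB8 and PSMB9 were lower. The median log2 change of the 9 genes was 0.23. Of all named loci, 44.8% were higher by any amount. Only PSMB9 of the 9 reached a 2-fold difference, as lower in siPAX9, and it barely did so (2.01-fold). Across all named loci, 13.7% differed at least 2-fold in either direction, 6.75% as higher and 6.91% as lower, so 1 of 9 is near the background share. At 1.5-fold, HLA-F as higher and PSMB9 as lower passed, 2 of 9, where 30.2% of all named loci passed in either direction, 13.5% as higher and 16.7% as lower.

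**Figure D1:**
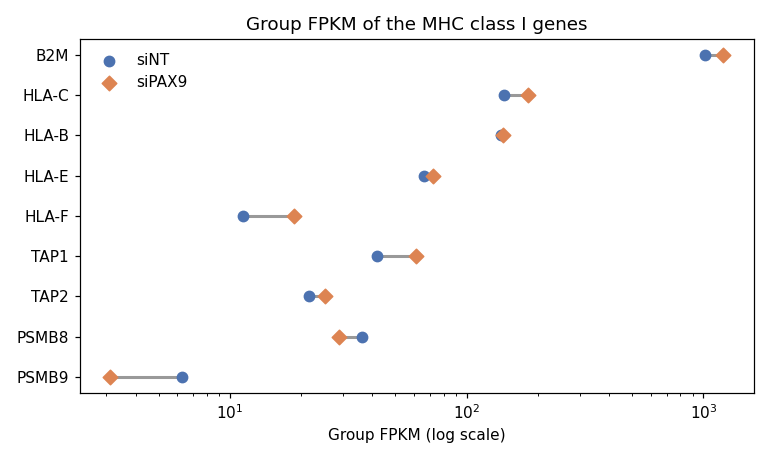
Group FPKM on a log axis for each of the 9 genes, with circles for siNT, diamonds for siPAX9 and a grey line joining them. Each point is the authors' single value for 3 combined samples, so there is no error bar. B2M lies far to the right at 1011 and 1209, and PSMB9 lies lowest and moves left, from 6.28 to 3.12.

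Among the heavy chains, the non-classical HLA-F differed most and the classical HLA-B least. HLA-B (chr6:31321643-31325022, hg19) encodes a classical, highly polymorphic heavy chain. Its FPKM was 139.7 in siNT and 142.6 in siPAX9, a log2 change of 0.03. HLA-C (chr6:31236526-31239913, hg19), a classical chain that is also a main ligand of killer immunoglobulin-like receptors, had 143.8 FPKM in siNT and 181.3 in siPAX9. Its log2 change of 0.33 was larger than that of 77.4% of named loci. HLA-C and HLA-B were close in siNT, with 1.03 HLA-C per HLA-B, and the ratio was 1.27 in siPAX9.

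HLA-E (chr6:30457183-30461982, hg19) encodes a non-classical chain that presents leader peptides of other class I chains to NKG2A receptors on natural killer cells. Its FPKM was 65.8 in siNT and 72.3 in siPAX9, a log2 change of 0.14. HLA-F (chr6:29691117-29716826, hg19) encodes another non-classical chain, which can reach the surface without peptide. It had 11.4 FPKM in siNT and 18.7 in siPAX9, 1.64-fold higher, and its log2 change of 0.72 exceeded that of 89.4% of named loci. HLA-F was the lowest of the 4 heavy chains in both groups. The HLA-E to HLA-F ratio went from 5.79 in siNT to 3.87 in siPAX9. HLA-F-AS1, a noncoding RNA listed at the same positions as HLA-F, had an FPKM of 3.41 and 4.42. Whether the counting used strand is not stated in the sources used here, so reads from HLA-F and HLA-F-AS1 may not have been told apart.

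Of the heavy chains outside the 9 genes, HLA-G, a non-classical chain typical of trophoblast, had 2.39 FPKM in siNT and 2.79 in siPAX9. The HLA genes are close paralogs, and the values are uncertain to the extent that reads could be assigned to the wrong copy. As a measure of this, each GENCODE canonical transcript was cut into windows of 76 bases, the read length, and searched for exact copies in transcripts of other genes. No window of HLA-B, HLA-F, B2M, PSMB8 or PSMB9 had such a copy. The share was 1.91% for HLA-C and 2.18% for HLA-E. The alleles of MCF10A differ from the reference, and this measure does not see that. The table also covered 7 alternative haplotypes of the MHC and listed all 1247 loci on them at 0, so each value of the 9 genes comes from the primary chromosome alone.

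B2M was by far the most abundant of the 9 messages. B2M (chr15:45003685-45010357, hg19) encodes the invariant light chain of every class I molecule and is the only one of the 9 genes outside chromosome 6. Its FPKM was 1011 in siNT and 1209 in siPAX9, a log2 change of 0.26, and its mean level exceeded that of 99.5% of named loci. Its difference of 197.7 FPKM was the largest among the 9 genes.

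The promoters of the heavy chains and B2M are shown because the classical regulators of class I genes act there. Regulatory factor X and NLRC5 act through a conserved module that ends in a Y box (core ATTGG, the NF-Y site), interferon regulatory factors through the interferon-stimulated response element (searched as its core, GAAANNGAA) and NF-kappaB through sites searched by the stretches GGGACTTTC and GGGGATTCC. Each sequence runs from 200 to 41 bases upstream of the RefSeq start (GRCh38.p14), on the strand of the gene. HLA-B lies at chr6:31357220-31357379 on the minus strand, HLA-C at chr6:31272133-31272292 on the minus strand, HLA-F at chr6:29723234-29723393 on the plus strand and B2M at chr15:44711317-44711476 on the plus strand. Capitals mark any of these letters, on either strand.
HLA-B: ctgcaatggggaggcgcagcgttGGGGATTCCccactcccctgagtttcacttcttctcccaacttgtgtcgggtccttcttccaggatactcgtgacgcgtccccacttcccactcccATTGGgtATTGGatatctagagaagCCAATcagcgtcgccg
HLA-C: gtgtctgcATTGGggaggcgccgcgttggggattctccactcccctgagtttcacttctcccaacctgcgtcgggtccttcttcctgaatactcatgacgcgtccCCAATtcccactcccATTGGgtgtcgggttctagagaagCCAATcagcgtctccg
HLA-F: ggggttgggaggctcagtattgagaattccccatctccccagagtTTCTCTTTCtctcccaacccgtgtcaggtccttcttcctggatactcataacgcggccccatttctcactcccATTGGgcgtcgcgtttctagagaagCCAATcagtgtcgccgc
B2M: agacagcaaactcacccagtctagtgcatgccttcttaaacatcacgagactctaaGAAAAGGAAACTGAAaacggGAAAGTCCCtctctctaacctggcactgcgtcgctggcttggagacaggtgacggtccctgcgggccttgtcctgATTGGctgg

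A promoter window, 250 bases before to 50 after the start, was found for 8 of the 9 genes. HLA-E had none in the table used. The HLA-B, HLA-C and HLA-F sequences printed above each hold a pair of Y box cores in opposite orientation near their 3′ end, while B2M has a Y box core and an overlapping pair of GAAANNGAA matches followed by an NF-kappaB stretch. GAAANNGAA was present in the windows of 5 of the 8 genes, HLA-F, B2M, TAP1, TAP2 and PSMB8, and in 8.11% of all 35116 windows. A gene was counted if any of its windows matched, and TAP1 and PSMB8 had 2 windows each. Counts of genes and shares of windows are therefore unlike measures. ATTGG was present for 6 of the 8 and in 34.6% of all windows. The TAP1 and PSMB9 windows overlap, and their ATTGG matches are the same bases. GGGACTTTC was present for B2M and TAP1 and in 0.387% of windows, and GGGGATTCC for HLA-B and in 0.285%. TGACGTCA, the cyclic AMP element, was present for none of the 8 and in 1.85% of windows, and its part TGACGT for PSMB8 and in 7.98%. These matches describe the letters of the windows and not bound sites. A missing match does not show that a response element is absent, since variants of these letters were not searched.

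Both subunits of the peptide transporter were higher in siPAX9. TAP1 (chr6:32808494-32821760, hg19, a position listed jointly with PSMB8 and PSMB8-AS1) had 41.8 FPKM in siNT and 61.2 in siPAX9. Its log2 change of 0.55, or 1.46-fold, exceeded that of 85.5% of named loci. TAP2 (chr6:32789610-32806600, hg19), its partner in the heterodimer, had 21.6 FPKM in siNT and 25.3 in siPAX9, a log2 change of 0.23. TAP1 was the more abundant partner in both groups, at 1.94 times TAP2 in siNT and 2.42 times in siPAX9. Of the TAP2 windows of 76 bases, 35.0% also occurred in the readthrough transcript that joins TAP2 to its neighbour.

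The genes of peptide loading went both ways. The list of peptide loading and editing genes had 11 members, all found. Of these, 4 were higher, 7 were lower and 0 differed 2-fold in either direction, with a median log2 change of -0.21, beside 44.8% higher and 13.7% past 2-fold among all named loci. The 4 higher were B2M, TAP1, TAP2 and CALR, the chaperone calreticulin (204.7 in siNT and 207.1 in siPAX9). TAPBP encodes tapasin, which bridges TAP and the heavy chain, and its FPKM, from a locus with several symbols, was 83.8 and 69.0. Its relative TAPBPL, a peptide editor, was at 4.92 and 3.68. CANX, the chaperone calnexin, was at 274.6 and 214.0, and PDIA3, the oxidoreductase ERp57, at 70.5 and 61.1. The aminopeptidases that trim peptides in the endoplasmic reticulum, ERAP1 and ERAP2, were at 9.32 and 7.67 and at 2.79 and 2.08. HM13, the signal peptide peptidase that releases leader peptides for HLA-E, was at 65.2 and 56.7. The changes of the 7 lower genes were small, the largest being the log2 change of -0.42 of TAPBPL and ERAP2.

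PSMB8 and PSMB9 were lower in siPAX9, while the remaining inducible catalytic subunit, PSMB10, was not (15.9 and 16.8 FPKM). PSMB9 (chr6:32821938-32827628, hg19), which encodes the inducible subunit beta 1i, had 6.28 FPKM in siNT and 3.12 in siPAX9, a log2 change of -1.01. Only 6.84% of named loci had a lower change. PSMB9 was also the least abundant of the 9 messages. With 1 added to each FPKM its log2 change was -0.82 and with centring on the median of named loci -0.94, both short of 2-fold. PSMB8 (chr6:32808494-32821760, hg19), which encodes the inducible subunit beta 5i, had 36.0 FPKM in siNT and 28.9 in siPAX9, a log2 change of -0.32, and 30.6% of named loci had a lower one. The PSMB8 to PSMB9 ratio was 5.74 in siNT and 9.25 in siPAX9. PSMB8-AS1, the antisense RNA at the same locus, had an FPKM of 3.06 and 3.64.

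TAP1 and PSMB9 are shown together because they are transcribed away from each other from neighbouring starts and went in opposite directions. The TAP1 to PSMB9 ratio was 6.66 in siNT and 19.6 in siPAX9, 2.94-fold higher. In the table, 177 bases separate the loci, and the RefSeq starts of GRCh38.p14 used here leave 487 bases between them. The windows from 200 to 41 bases upstream of each start follow, TAP1 at chr6:32853745-32853904 on the minus strand and PSMB9 at chr6:32853992-32854151 on the plus strand, with capitals as above.
TAP1: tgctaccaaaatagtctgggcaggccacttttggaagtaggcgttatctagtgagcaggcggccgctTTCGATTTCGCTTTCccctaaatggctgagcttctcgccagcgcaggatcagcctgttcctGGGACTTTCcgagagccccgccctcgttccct
PSMB9: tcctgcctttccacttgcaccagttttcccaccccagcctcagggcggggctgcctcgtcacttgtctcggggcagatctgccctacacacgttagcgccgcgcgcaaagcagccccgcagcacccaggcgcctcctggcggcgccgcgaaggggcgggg

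The TAP1 window holds an overlapping pair of GAAANNGAA matches, 133 and 127 bases upstream of the TAP1 start on the opposite strand, and a GGGACTTTC match 72 bases upstream. The PSMB9 stretch shown holds none of the letters searched. That says only that these letters are not in this stretch, and matches assigned to TAP1 lie within the region between the starts.

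The inducible subunits were next compared with the constitutive subunits that they replace. PSMB5, PSMB6 and PSMB7, the constitutive catalytic subunits, were all lower in siPAX9, with a median log2 change of -0.36 and none past 2-fold. PSMB5 was at 168.1 FPKM in siNT and 130.7 in siPAX9, PSMB6 at 77.2 and 60.0, and PSMB7 at 85.3 and 61.2. PSMB8 kept nearly the same proportion to its counterpart PSMB5, at a ratio of 0.214 in siNT and 0.221 in siPAX9. PSMB9 was lower relative to its counterpart PSMB6, at 0.0813 and 0.0521. PSMB10 replaces PSMB7, and its ratio to PSMB7 went from 0.186 to 0.275. Thus the 3 inducible to constitutive ratios had different directions, and the constitutive subunits were the more abundant in every pair. Of the other genes of the inducible proteasome list, the PA28 activator subunits PSME1 and PSME2 had FPKM values of 66.7 and 60.9 and of 23.6 and 18.3. PSME2 shares its locus with a microRNA and is listed at the same position as IRF9, so reads may have been assigned to the wrong gene. PSME3, a nuclear activator not tied to class I presentation, was at 37.2 and 43.3, and POMP, the proteasome assembly chaperone, at 39.3 and 35.2. Of the 7 genes of that list, 2 were higher, 5 lower and 1, PSMB9, past 2-fold, a share near the 13.7% of all named loci.

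**Figure D2:**
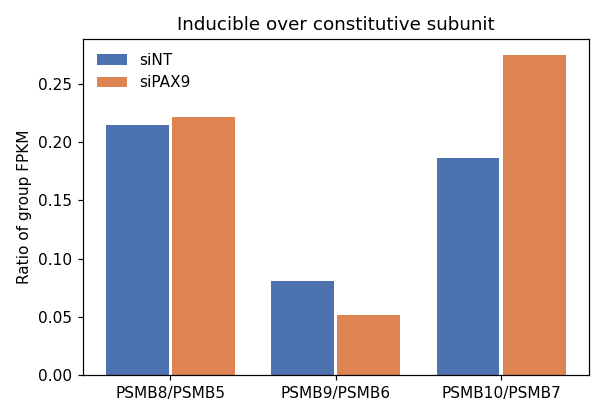
Bars give the ratio of group FPKM of each inducible subunit to the constitutive subunit it replaces, in siNT (blue) and siPAX9 (orange), on an axis from 0 and without replicate error. PSMB8/PSMB5 stays near 0.22, PSMB9/PSMB6 is lower in siPAX9 (0.0813 against 0.0521) and PSMB10/PSMB7 is higher (0.186 against 0.275).

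The class I genes were then set beside their regulators and beside other interferon-responsive genes. Of 16 regulators of class I promoters, 4 were higher, 12 lower and 1 past 2-fold, with a median log2 change of -0.22, where 44.8% of all named loci were higher and 13.7% past 2-fold. NLRC5, the transactivator of class I genes, had 2.86 FPKM in siNT and 2.29 in siPAX9. IRF1, an interferon-induced activator of class I and TAP1 transcription, was at 10.9 and 10.4. IRF9, the DNA-binding subunit of the type I interferon transcription complex, was at 14.0 and 29.4, a log2 change of 1.06, from a locus listed with RNF31. Its listed position is also that of PSME2, so reads may have been assigned to the wrong gene. IRF2, a repressor and activator of interferon-responsive promoters, was at 17.9 and 11.0, and NFKB1, an NF-kappaB subunit, at 31.3 and 18.3.

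Most antiviral targets of type I interferon had a higher FPKM in siPAX9. Of 26 such targets, 23 had a mean FPKM of at least 1, of which 18 were at least 2-fold higher (against 6.75% of all named loci) and 0 at least 2-fold lower, with a median log2 change of 2.12. Of the 18, 6 were under 1 FPKM in siNT and passed the minimum through siPAX9, among them IFIT1 and MX1, and the other 12 had at least 1 FPKM in both groups. With 1 added to each FPKM, 15 were past 2-fold, beside 1210 of the 12595 named loci. IFI44 and IFI44L are counted apart but came from 1 locus. IFI6, an antiviral mitochondrial protein, had 10.7 FPKM in siNT and 338.5 in siPAX9, and IFI27 4.93 and 110.6. IFIT1, which binds foreign RNA caps, was at 0.571 and 12.2, and MX1, an antiviral GTPase, at 0.170 and 2.73. Targets linked to interferon gamma were mixed. Of the 6 with a mean FPKM of at least 1 among the 16 listed, 3 were at least 2-fold higher (against 6.75% of all named loci) and 0 at least 2-fold lower (against 6.91%), and with 1 added to each FPKM the count past 2-fold was 1. Of the 3, SOCS1 was under 1 FPKM in siNT. SOCS1, a feedback inhibitor, was at 0.506 and 2.41, GBP1 and GBP3, guanylate-binding proteins, at 4.89 and 9.80 and at 5.29 and 10.6, and WARS, a tryptophanyl-tRNA synthetase, at 44.2 and 24.4. GAAANNGAA was present in the promoter windows of 16 of the 19 type I targets with a window, again counted per gene. The list was written with the change of such genes already known from these data, so its direction is no independent evidence.

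**Figure D3:**
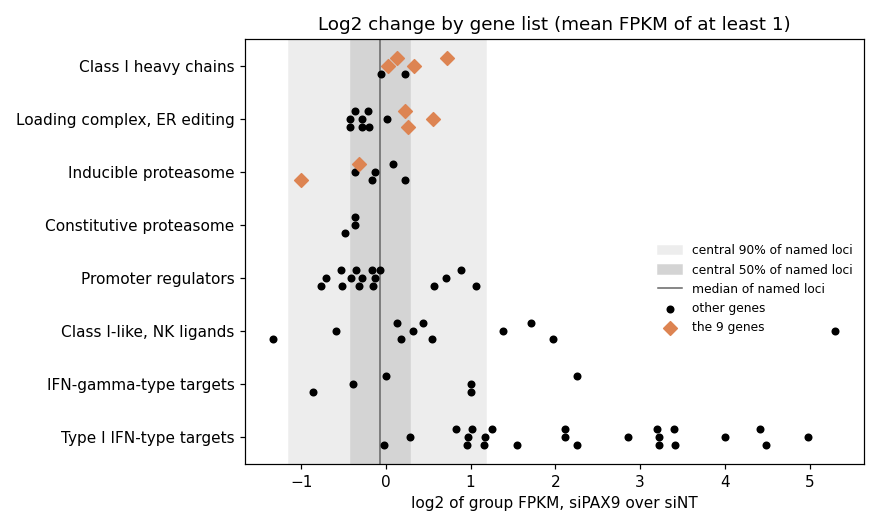
Each point is the log2 change of 1 gene (siPAX9 over siNT, group FPKM) with a mean FPKM of at least 1, in 8 gene lists, with orange diamonds for the 9 genes, black points for other genes and grey bands for the central 50% and 90% of named loci. The 9 genes lie between -1.01 and 0.72, while most type I interferon-type targets lie above 1.

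Class I-like molecules and natural killer ligands included genes with large differences. Of 14 class I-like and natural killer ligand genes, 11 had a mean FPKM of at least 1, of which 4 were at least 2-fold higher and 1 at least 2-fold lower, with a median log2 change of 0.43. Of all named loci, 6.75% were at least 2-fold higher and 6.91% at least 2-fold lower. With 1 added to each FPKM, the count of these genes past 2-fold in either direction was 3 in place of 5. The count over all named loci also fell, from 1720 to 1210. Of the 4 higher genes, RAET1L and ULBP2 were under 1 FPKM in siNT and passed the minimum through siPAX9. Most extreme was AZGP1, a secreted class I-like glycoprotein that binds lipid, with 1.82 FPKM in siNT and 72.1 in siPAX9. RAET1G, RAET1L and ULBP2, ligands of the activating receptor NKG2D, were at 6.85 and 26.8, at 0.708 and 2.31 and at 0.702 and 1.84. They are close relatives, and reads may have been assigned to the wrong copy. The stress-induced NKG2D ligands MICA and MICB, which lie beside HLA-B, were at 16.7 and 22.6 and at 5.57 and 6.30. PROCR, the endothelial protein C receptor, was the 1 gene at least 2-fold lower, at 36.0 and 14.3.

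Of the 9 genes, 8 lie in the MHC, and they were also compared with their neighbours by position. Between the start of HLA-F and the end of HLA-DPB1 (chr6:29691117-33057473, hg19), 92 named loci had a mean FPKM of at least 1. The 8 genes had a median log2 change of 0.18, with 6 higher and 2 lower. The other 84 loci had a median of -0.05, with 40 higher and 44 lower, and 13.1% of them differed at least 2-fold, near the 13.7% of all named loci. The largest increases were LY6G6C, a surface protein of epithelial differentiation (0.0600 and 3.39), DDAH2, an arginine metabolism gene (0.777 and 3.46), and LOC554223 (0.650 and 2.29). All 3 were under 1 FPKM in siNT and passed the minimum through siPAX9. CFB, complement factor B, was well above the minimum in both groups (56.9 and 184.3). MUC21, an epithelial mucin, was listed at 0 in siNT and at 4.69 in siPAX9. The largest decreases were LTB, the cytokine lymphotoxin beta (2.70 and 0.382), TRIM15, a ubiquitin ligase (2.12 and 0.515), and C6orf48, a small nucleolar RNA host gene listed with SNORD48 and SNORD52 (195.7 and 60.2). LTB and TRIM15 were under 1 FPKM in siPAX9 and passed the minimum through siNT. The class I genes thus lay among neighbours that went both ways, and TAP1 and PSMB9 were adjacent loci with opposite directions.

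**Figure D4:**
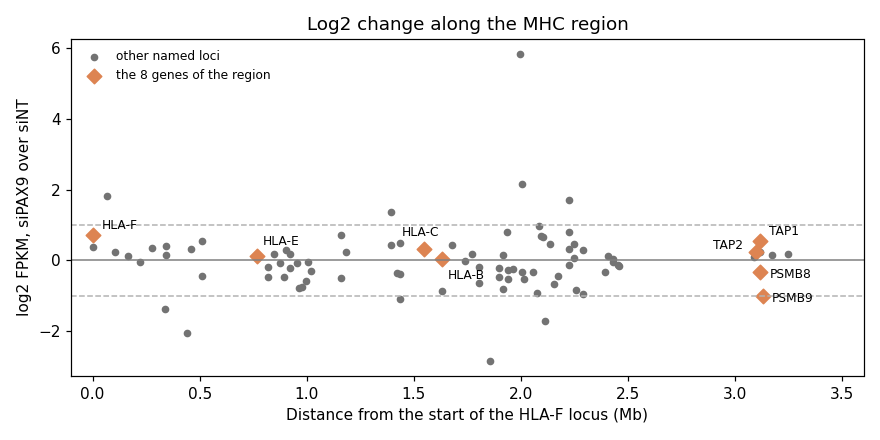
Log2 change (siPAX9 over siNT, group FPKM) against the distance in Mb from the start of the HLA-F locus, for named loci of the MHC region with a mean FPKM of at least 1, with diamonds for the 8 class I genes and dashed lines at 2-fold. MUC21, listed at 0 in siNT, is not drawn, and TAP1, PSMB8 and PSMB8-AS1 share 1 position. TAP1 (0.55) and PSMB9 (-1.01) sit side by side at the right.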

How the data were processed

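Poly(A)+ RNA of MCF10A cells was sequenced by the authors as single-end reads, 3 samples in siNT and 3 in siPAX9. Per the labels and the study's methods, reads were aligned to hg19 with Bowtie 2 and quantified with Cufflinks in Partek Flow. The authors deposited 1 FPKM per locus and group. How libraries were scaled against each other is not given in the sources used here, and the table does not give the reads behind each value. The study states total reads per library only as a range over all 6, which cannot be assigned to either group. The deposited table also holds the authors' own fold changes, test statistics, p-values and q-values, which were not used. Hence no test was run.

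Group FPKM was read for 41656 loci. Deposited starts count from 0 and are given here from 1. Of loci with 1 symbol and a GENCODE gene of that name (release 44 on GRCh37), 99.6% overlapped it. Values below 1e-06 were treated as 0. A difference was described as past the limit at 2-fold, without a pseudocount, over the 12595 named loci with a mean FPKM of at least 1. Named genes were the 9 genes, HLA-G, all genes of the loading, inducible and constitutive proteasome lists, up to 4 genes of each other list with the largest changes, NLRC5, IRF1, MICA, MICB, PAX9 and the 3 largest changes each way in the MHC region. MUC21, CFB, KRT5, CDH1, EPCAM, TP63, CD14, PTPRC, CD3E, DCN, PECAM1, KDR, VWF, CDH5, PROCR, PSMB8-AS1 and genes named as sharing a locus fall outside this rule and were picked with their values in view. Some genes within this rule are not reported here. The genes and lists were chosen with earlier results of these data known. In the lists, 3 symbols were matched under another spelling. Promoters are RefSeq sequences (GRCh38.p14). Python 3.11.15, numpy 2.4.6, pandas 2.3.3 and matplotlib 3.10.9 were used. Alternatives were centring on the median, a pseudocount of 1, other fold limits and FPKM minimums, rows summed per symbol and rows with 1 symbol.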

Additional observations from a re-analysis of the deposited data

How the results depend on the processing

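The 9 genes kept their directions, 7 higher and 2 lower, with 1 added to each FPKM, with centring on the median of named loci, with all rows of a symbol summed and with rows of 1 symbol only. Their count past 2-fold was 1 and was 0 with 1 added to each FPKM, with centring or at a 4-fold limit, and 2 at a 1.5-fold limit. The inducible proteasome list likewise went from 1 to 0 with 1 added or with centring. Of the 12595 named loci, 1720 were past 2-fold, 1210 with 1 added to each FPKM, 1704 with centring and 3807 past 1.5-fold. The count was 3902 without the FPKM filter, where more loci are counted, and 603 at a mean FPKM of at least 10, where fewer are. With 1 added to each FPKM, the PAX9 log2 change was -1.52, and the counts past 2-fold were 3 for class I-like genes (5 before), 1 for interferon gamma-type targets (3 before) and 1 each for basal epithelial and endothelial markers (2 before). Without the filter they were 1 for class I pseudogenes (0 before), 4 for class II genes (0 before), 8 for interferon gamma-type targets and 4 for immune markers (1 before). More genes of each list enter without the filter, and no share of all named loci was computed for that setting. In the MHC region 12 loci were past 2-fold, and 3 at a mean FPKM of at least 10. No paired analysis was possible because the columns hold 1 combined value per group, and for the same reason leaving out each replicate was not run. Low values such as PSMB9 rest on a number of reads that the table does not give.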

Other observations

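Downstream of the proteasome, the cytosolic peptidases that trim class I peptides did not move together. Of 6 such genes, 1 was higher and 5 lower, with 1 past 2-fold, where 44.8% of all named loci were higher and 13.7% were past 2-fold. BLMH, bleomycin hydrolase, had 26.5 FPKM in siNT and 6.36 in siPAX9. NPEPPS, the puromycin-sensitive aminopeptidase, was at 36.0 and 66.9, THOP1, thimet oligopeptidase, at 32.7 and 19.2, and TPP2, tripeptidyl peptidase 2, at 17.3 and 12.6. Of 9 genes linked to the removal of class I molecules, 8 had a mean FPKM of at least 1 and 0 were past 2-fold, beside 13.7% of all named loci. MARCH9, a membrane ubiquitin ligase, was at 7.07 and 5.32, SPPL2A at 16.3 and 19.7, TMEM127 at 17.4 and 19.9 and SUSD6 at 26.1 and 23.1. Of 8 class I pseudogenes and noncoding neighbours found, 3 had a mean FPKM of at least 1 and 0 of these were past 2-fold. HLA-H was at 20.4 and 22.3, and HCP5 at 3.47 and 3.45.

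Most class II genes were at low levels in these epithelial cells. Of 15 class II genes, 10 had an FPKM under 1 in both groups and 3 a mean of at least 1. CD74, the invariant chain, was at 0.880 and 1.40, HLA-DOB, which adjoins TAP2, at 2.54 and 2.72, and IFI30, a lysosomal thiol reductase, at 25.7 and 28.5. Of 17 interferon ligands, receptors and kinases, 9 had a mean FPKM of at least 1, with 3 higher, 6 lower and 1 past 2-fold, beside 44.8% higher and 13.7% past 2-fold among all named loci. IFNGR2, a subunit of the interferon gamma receptor, was at 99.5 and 35.4, JAK1 at 22.5 and 37.3, IFNAR2 at 9.10 and 7.07 and IL10RB at 18.7 and 14.6. IFNB1 was at 0.0547 and 0.0566, and IFNG was listed at 0 in both groups. IFNB1 and IFNG were picked with their values in view.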
